A study of Mus musculus with 22 samples.

Results

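The cytosolic ribosomal protein genes encode the protein part of the ribosome. The 76 genes described here are all rows named Rplp0, Rplp1, Rplp2 or Rpsa, or named Rpl or Rps with a number and an optional letter, without names that mark pseudogenes and without the Rps6k kinases. They are 76 of the 23091 genes in the 22 deposited tables, and 29 of them belong to the small and 47 to the large ribosomal subunit. The rule uses gene names and no measured value, though earlier results of these data were known when it was chosen.

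The study examined donor neutrophils in the terminal ileum of mice 21 days after allogeneic transplantation. BALB/c recipients of 7 to 9 weeks were irradiated with 2 doses of 5 Gy and received 5000000 bone marrow cells from C57BL/6 donors, listed as female C57BL/6N mice of 7 to 10 weeks. In the 10 control libraries the graft held no T cells, and in the 12 libraries of acute graft-versus-host disease (aGVHD) it also held 400000 donor T cells. The sort gate was CD45+H2kb+CD11b+Ly6G+, set for neutrophils of donor origin, and the cells were profiled by CEL-Seq2, a plate method in which unique molecular identifiers mark the 3′ end of each transcript of a single cell. Both groups were irradiated and transplanted, so neither is an untreated mouse. The labels do not say which mouse gave which library, so p-values measure only how far libraries spread, in part perhaps for technical reasons.

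A ribosome holds 1 copy of most of these proteins, and cells tend to make them in step. Ribosomal protein mRNAs begin with a C followed by a run of pyrimidines, the 5′ terminal oligopyrimidine (TOP) element, through which mTORC1 and the protein Larp1 control their translation. Mature neutrophils are known as short-lived cells with little RNA and few ribosomes, while macrophages and absorptive epithelial cells make much more protein.

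The start of 5 members is shown because this element is the sequence feature the family shares, and the starts of Rpl11 and Rps9 are shown for contrast, since their levels lead later results. Each window of 30 bases from RefSeq (GRCm38.p6) has the annotated first transcribed base as its 16th letter, and capitals mark the unbroken run of C and T that covers this base.
Rps15a, chr7:118116133-118116162, minus strand: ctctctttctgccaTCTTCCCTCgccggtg
Rps18, chr17:33955651-33955680, minus strand: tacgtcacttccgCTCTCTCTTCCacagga
Rps10, chr17:27635230-27635259, minus strand: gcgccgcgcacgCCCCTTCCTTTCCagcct
Rpl35a, chr16:33056467-33056496, plus strand: gcggggcttgCCTTCCTCTTTCCgccatct
Rps6, chr4:86857353-86857382, minus strand: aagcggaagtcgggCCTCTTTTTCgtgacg
Rpl11, chr4:136053379-136053408, minus strand: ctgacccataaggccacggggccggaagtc
Rps9, chr7:3704026-3704055, plus strand: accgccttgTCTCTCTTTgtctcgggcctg
Of the 76 members, 56 had a start in the table. A run of at least 5 C or T from the annotated first base, read on the transcript's strand, was found in 15 of the 56 (26.8%), and 13 of these began with C. The same run was found in 796 of 17436 other protein-coding genes (4.57%). Where a gene had several starts, the one with the longest run was used in both sets. Counting began at the annotated base, so Rps9, whose run of 9 letters begins upstream of it, is not among the 15.

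Of 4224 barcodes, 1383 held 500 or more transcripts and were taken as cells, 358 from control and 1025 from aGVHD libraries. The control libraries had 11 to 60 cells and 29334 to 223216 transcripts each, and the aGVHD libraries 74 to 95 cells and 192625 to 347985 transcripts. Controls 5, 6, 9 and 10 had only 12, 19, 12 and 11 cells. All tables list the same barcodes, and no 2 kept barcodes had identical counts. Unnamed gene models, whose symbols start with Gm, took 48.88% of all transcripts, so shares and levels below are relative to the transcripts of the other genes, called named genes here. Clusters built without the 76 genes gave 702 neutrophil-like, 90 macrophage/monocyte-like, 29 epithelial-like and 28 B or plasma cell-like cells. Another 534 cells lay in clusters that could not be named from the marker lists. Of the neutrophil-like cells 539 came from aGVHD libraries, and of the macrophage/monocyte-like cells 45 came from each group. The names were rebuilt here and are not the authors' annotation, and 10 T and NK cell markers and 6 dendritic cell markers were raised in the macrophage/monocyte-like cluster beside 15 of its own.

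All 76 genes were detected, and together they gave 104219 transcripts, 4.245% of the transcripts of named genes. Most were broadly seen, with 57 members found in over 20% of the cells. Levels are given in CPM, transcripts of the gene per 1000000 transcripts of named genes, averaged over the libraries. Since each transcript is counted once at its 3′ end, they need no scaling for gene length. Rps9, a small-subunit protein beside the mRNA entry channel, had the highest mean level, 1973 CPM. Rps23, a protein of the decoding centre, had 1389 and Rpl23, a large-subunit protein, had 1352. The ranges of Rps23 and Rpl23 across libraries overlapped, so their order is not resolved. The 10 most abundant members gave 27.37% of all member transcripts.

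At the low end, 8 members fell below the low-count filter. The paralogs Rpl10l and Rpl39l, known from testis, had 3 transcripts each in all cells together, and Rpl3l, known from muscle, had 11. Core genes were among them too: Rps12 had 4 transcripts, Rpl35 had 10, Rps27 had 14 and Rpl9 had 41, while Rplp2 was detected in 6.94% of the cells.

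Several of these core genes have near-identical copies whose rows in the tables carried more transcripts. Rps27 had 14 transcripts and Rps27rt, which held all of the 50-base words in the last 200 bases of the Rps27 transcript, had 1884. Rpl9 had 41 and Rpl9-ps6, with the same full sharing, had 1481. For Rpl35 the numbers were 10 and 589, the second from Gm2000, which shared 99.3% of the words. Rpl23a had 197 against 1961 for Rpl23a-ps3, with 66.2% shared, and Rps12 had 4 against 49 for Rps12-ps3, with 90.7%. In all, 15 members shared such words with 19 other rows of the tables, from 5.96% to 100% of the words by pair. The level of these members is uncertain because the counting could split their reads. Rplp2 had no such copy in the tables.

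**Figure D1:**
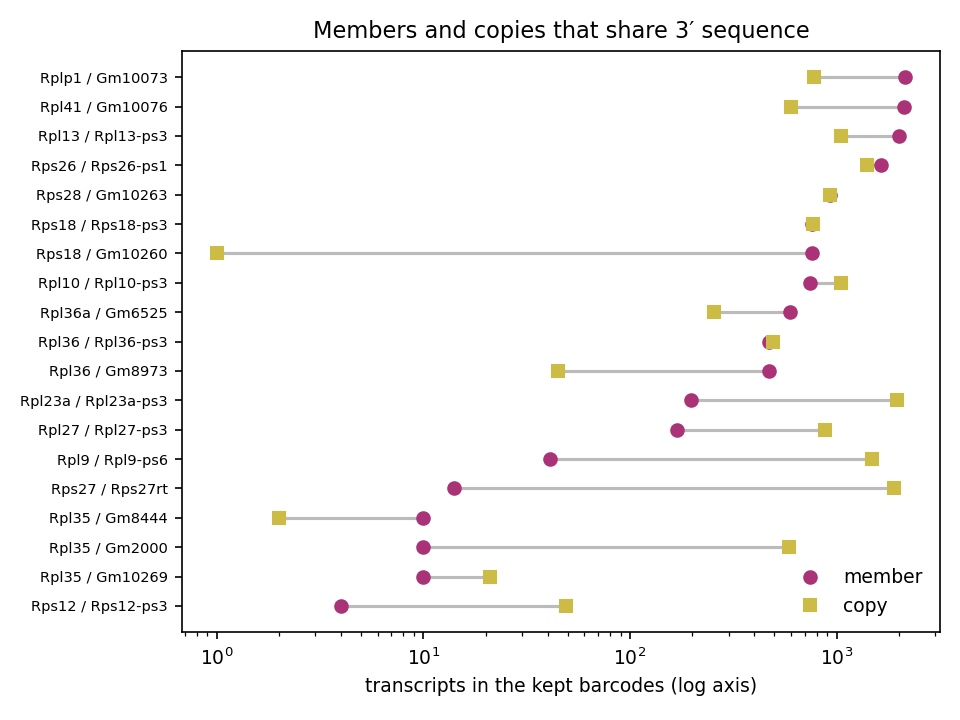
Transcripts in the kept barcodes (log axis) of each member (circles) and of the rows that share 3′ sequence with it (squares), 1 pair per line. Rps27, Rpl9 and Rpl35 lie far left of their copies Rps27rt, Rpl9-ps6 and Gm2000, while Rps18 and Rps28 lie on top of Rps18-ps3 and Gm10263. In its other pair Rps18 has 757 transcripts against 1 for Gm10260.

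The level of nearly every member differed between cell classes. Pooled over the cells of a class, the level in macrophage/monocyte-like cells was above that in neutrophil-like cells for 68 of the 68 members that passed the filter over all gated cells, with a median ratio of 4.39. In epithelial-like cells it was higher for 67 of 68, with a median ratio of 3.68. The ratio was smaller in B or plasma cell-like cells (median 1.67) and in the unnamed clusters (1.44). These ratios describe clusters and have no test, since the classes come from the same cells.

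Rps9 departed from this pattern. Its level was 1568 CPM in neutrophil-like cells, where the next member, Rpl23, had 685. In macrophage/monocyte-like cells Rps9 reached 3130, a ratio of 1.997 and the lowest of the 68. It was the only one of the 68 that was lower in epithelial-like cells, with 844 CPM, a ratio of 0.538. At the other end, Rpl10, which lies near the peptidyl transferase centre, was 9.29 times higher in macrophage/monocyte-like cells, and Rps18, which lies in the head of the small subunit, was 9.81 times higher in epithelial-like cells. Rpl10 and Rps18 are among the members with copies.

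**Figure D2:**
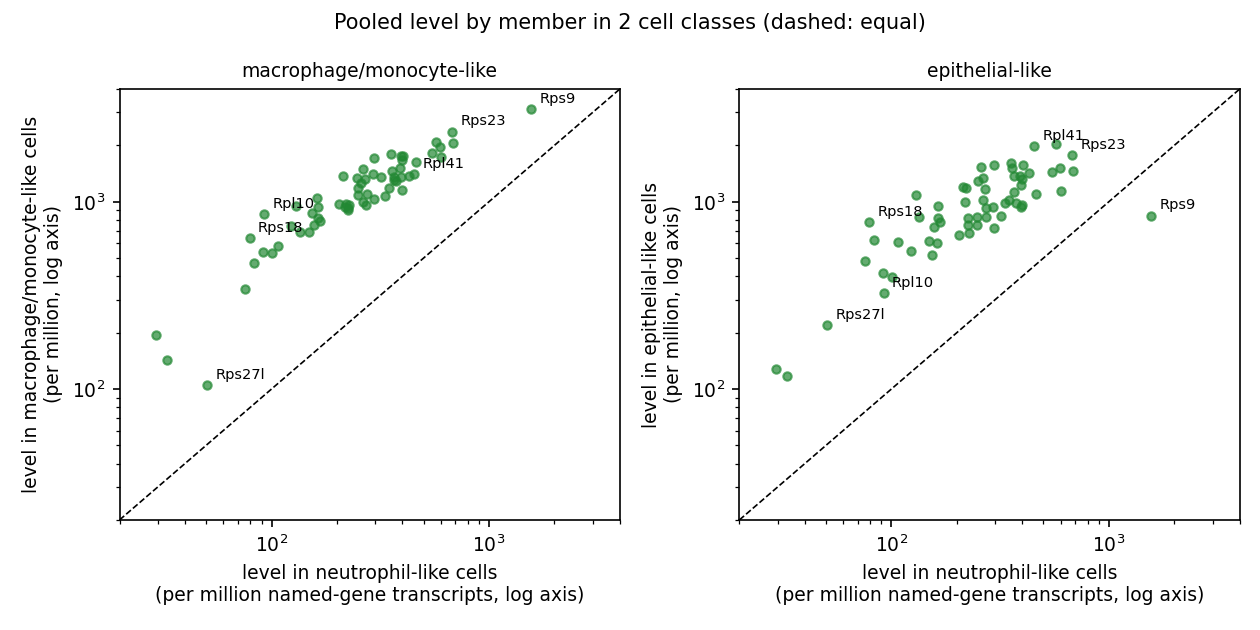
Level of 63 of the 68 tested members in neutrophil-like cells (x axis) against their level in macrophage/monocyte-like (left) and epithelial-like cells (right), CPM of named genes on log axes, pooled over cells. All points lie above the dashed line of equality on the left, and Rps9 alone lies below it on the right.

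The number of members detected also differed between classes. A median of 18 of the 76 genes had a transcript in a neutrophil-like cell, 11 in a cell of the unnamed clusters, 65 in a macrophage/monocyte-like cell and 66 in an epithelial-like cell. These numbers are not independent of depth, since the median cell had 1368, 555.5, 5536 and 7391 named-gene transcripts in these classes. The share of named-gene transcripts from the 76 genes, as a mean over control libraries with at least 3 cells of the class, was 8.84% ± 1.87 (SD, n = 8) in macrophage/monocyte-like cells and 7.11% ± 1.53 (n = 2) in epithelial-like cells. The share was 1.82% ± 0.35 in neutrophil-like cells of the 6 control libraries with at least 10 of them. Each library's barcodes form a used and an unused set, and the set with the lower summed transcripts was taken as unused. The share in this unused set was 5.58% ± 2.26 in control (n = 10) and 6.17% ± 2.47 in aGVHD libraries (n = 12). Both means were above the share in neutrophil-like cells. Low-count wells of the used set were left out, so these values do not describe empty wells of the plate.

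Over all gated cells, ribosomal protein transcripts were a smaller part of the RNA in aGVHD than in control libraries. The share was 3.90% in the lowest, 5.81% in the median and 8.72% in the highest control library, and 2.41%, 3.74% and 5.29% in the aGVHD libraries. The groups overlapped, but 12 of 12 aGVHD libraries lay below the control mean and 7 below the lowest control. The mean was 5.82% ± 1.34 (SD, n = 10) in control and 3.72% ± 0.90 (n = 12) in aGVHD libraries, a difference of -2.10 percentage points. Both subunits had lower shares, with 2.54% against 1.67% for the small and 3.28% against 2.05% for the large subunit. The difference was -2.08 within the libraries with a date-like number in the title (6 control, 8 aGVHD) and -2.05 within those with G1 in the title (4 and 4). It was -1.39 in libraries with at least 20 cells and -1.32 with each cell thinned to 250 named-gene transcripts. No test is given for the share, which is a score over the members.

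Gene by gene, 68 members passed the low-count filter and all 68 had a negative log2 fold change (aGVHD over control). The change passed the threshold for 28 of them, all lower in aGVHD, and for 0 in the other direction (limma adjusted p under 0.05 over 2382 genes). Among all genes tested 2.64% were lower and 2.56% higher. A further count at an unadjusted p under 0.05 gave 65 members. The median log2 fold change of the 68 was -0.64, beside -0.01 over all genes tested. Among the 28 were Rplp0, Rplp1, Rpl3, Rpl6, Rpl11, Rpl12, Rpl13, Rpl13a, Rpl14, Rpl17, Rpl30, Rpl34, Rpl35a, Rpl36a, Rpl37a, Rps7, Rps10, Rps15a, Rps18, Rps21, Rps24, Rps26, Rps28 and Rps29. By subunit, 12 of 27 small and 16 of 41 large members were lower.

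**Figure D3:**
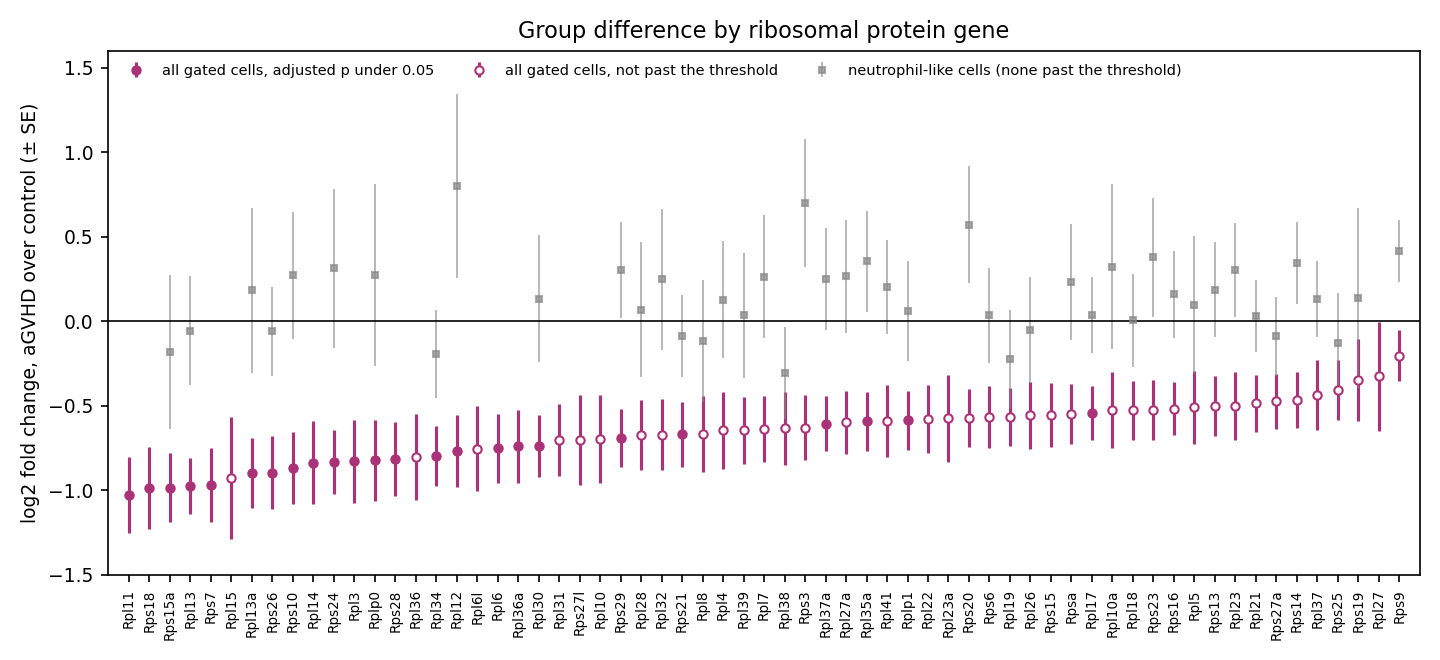
Log2 fold change (aGVHD over control, ± SE) of 63 of the 68 members tested over all gated cells (circles, filled where the adjusted p was under 0.05) and of 45 of the 50 tested in neutrophil-like cells (grey squares). The circles lie below 0 throughout, from Rpl11 at -1.03 to Rps9 at -0.20, while 34 of the 45 squares lie above 0.

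Rpl11 and Rpl5 bind the 5S ribosomal RNA before it joins the large subunit, and when ribosome assembly fails they bind Mdm2 and release p53. Rpl11 had 415, 607 and 1090 CPM in the lowest, median and highest control library and 115.6, 288 and 495 in the aGVHD libraries. Of the 12 aGVHD libraries, 8 lay below the lowest control. The change was -1.03 ± 0.23 (log2 fold change ± SE, limma adjusted p = 0.0155), the largest of the 68. Rpl5 had 572, 848 and 1867 CPM against 247, 686 and 1000, and its change of -0.51 ± 0.22 did not pass the test (limma adjusted p = 0.156).

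The stalk of the large subunit, which recruits the elongation factors, is built on Rplp0 and carries Rplp1 and Rplp2. Rplp0 had 638, 982 and 1921 CPM in control and 130, 587 and 1011 in aGVHD libraries, with 7 of 12 aGVHD libraries below the lowest control. It fell by 0.82 ± 0.24 on the log2 scale (limma adjusted p = 0.0457). Rplp1 fell by 0.59 ± 0.17 (limma adjusted p = 0.0468), and Rplp2 was below the filter. Of the large-subunit proteins around the exit of the peptide tunnel, 8 were tested, with changes from -0.70 for Rpl31 to -0.54 for Rpl17, and only Rpl17 passed the test (limma adjusted p = 0.0464). Rpl13 had the smallest adjusted p of the members. It had 628, 1235 and 1853 CPM against 406, 615 and 1022, a change of -0.97 ± 0.17 (limma adjusted p = 0.00448).

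In the small subunit, Rps18 had 202, 437 and 872 CPM in control and 86.7, 213 and 441 in aGVHD libraries. The ranges overlapped, with 4 aGVHD libraries below the lowest control, and the change was -0.98 ± 0.24 (limma adjusted p = 0.0246). Rps15a had 376, 579 and 1117 against 115.6, 352 and 464, with 8 of 12 aGVHD libraries below the lowest control. Its change was -0.98 ± 0.20 (limma adjusted p = 0.0114). A list drawn up for the small-subunit head and mRNA entry is not complete for these sites, since Rps9 and Rps18 are not on it. Of its 6 tested members, Rps10 (-0.87) and Rps29 (-0.69) passed the test. Rpsa (-0.55) and Rps20 (-0.57) had limma adjusted p-values of 0.0664 and 0.0504. Rps2, another protein of this list, was not analysed here.

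Rps9, the most abundant member, had the smallest change. Its levels were 1262, 1908 and 3816 CPM in control and 1286, 1838 and 2172 in aGVHD libraries. No aGVHD library lay below the lowest control, and the change of -0.20 ± 0.15 did not pass the test (limma adjusted p = 0.470). That Rps9 differed from the other members in this change was not tested.

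Of 10 members whose human counterparts are mutated in Diamond-Blackfan anaemia, a failure of red cell production, 6 were lower: Rps7, Rps10, Rps24, Rps26, Rpl11 and Rpl35a. Rps19, the gene most often mutated in that disease, had 191.4, 538 and 694 CPM against 187.8, 434 and 764 and did not pass the test (-0.35 ± 0.24, limma adjusted p = 0.425). Of the list of paralogs drawn up here, only Rps27l, known as a p53 target, was tested. It did not pass either (-0.70 ± 0.27, limma adjusted p = 0.115). Rps18, Rps26, Rps28, Rpl13, Rpl36a and Rplp1 are called members that share 3′ words with other rows. The shared part ran from 5.96% of the words for Rpl36a to 72.2% for Rpl13. Of the 14 such rows tested, over all members, 6 were themselves lower.

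**Figure D4:**
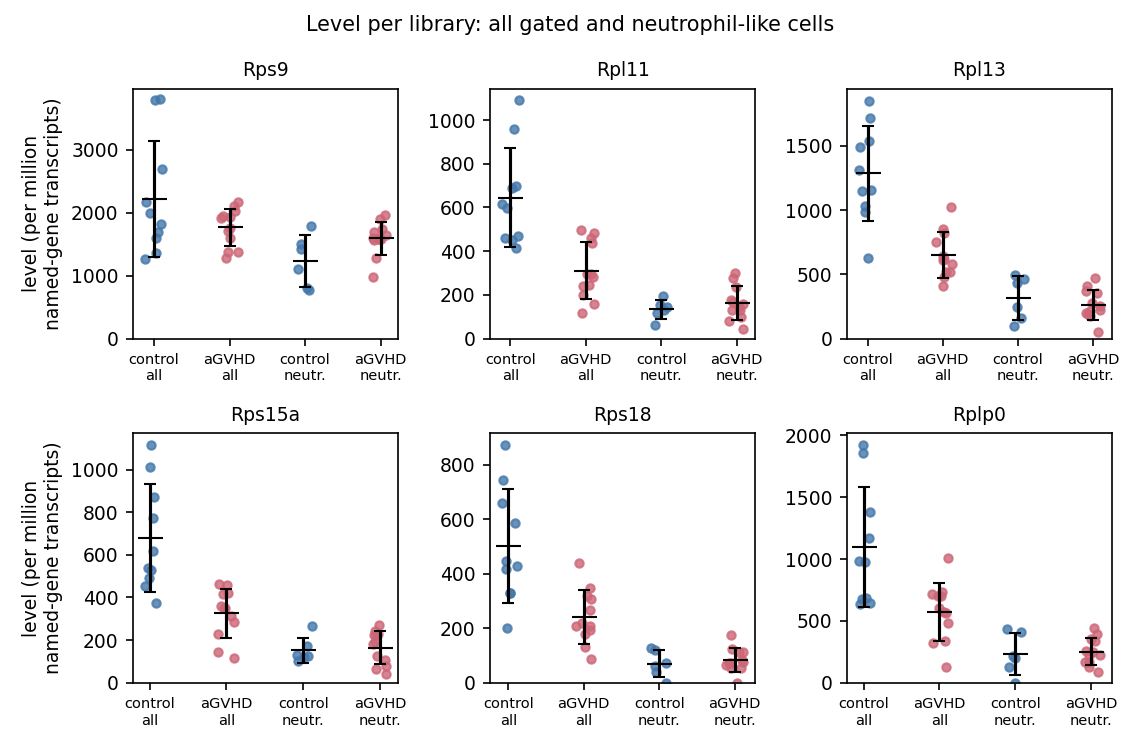
Level per library (points) with mean and SD (black) of 6 members, CPM of named genes, over all gated cells (left pair) and neutrophil-like cells (right pair). In Rpl11, Rpl13, Rps15a, Rps18 and Rplp0 the aGVHD points sit lower in the left pair and overlap widely in the right pair, while Rps9 overlaps in both.

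The number of called members moved with single libraries. It was 7 without control 1, 14 without control 4, 15 without control 6, 16 without control 8, 15 without control 9 and 49 without control 7, and 44, 15, 14, 16, 18, 16 and 16 without aGVHD 1, 2, 3, 4, 5, 6 and 8, with a negative change for every member tested in each of these fits. With the 4 control libraries of under 20 cells left out together, limma called 0 of 69 (57 at an unadjusted p under 0.05), with a median of -0.58. Scaling to the library total, which includes the unnamed gene models, also gave 0 (41 at an unadjusted p under 0.05, median -0.63), with 0 of 2382 genes called. Leaving out very deep or Kcnq1ot1-rich barcodes gave 1, Rpl13 (41 unadjusted, median -0.55), with 4 of 1635 genes called. Few or no genes of any kind were called in these fits, so their low counts are not a result about the members.

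The cells of the gate also differed between the groups. Macrophage/monocyte-like cells were 14.4% ± 7.30 of the cells in control (n = 10) and 4.38% ± 2.53 in aGVHD libraries (n = 12), and epithelial-like cells 3.93% against 1.12%. Neutrophil-like cells were 40.3% ± 14.4 against 52.6% ± 14.8. The summed level of the macrophage and monocyte list, 16 of 18 genes in the tables with none at 0, ranged from 1774 to 18193 CPM in control and from 2273 to 13409 in aGVHD libraries. That of the epithelial list, 17 of 18 genes with none at 0, ranged from 22.3 to 40367 and from 21.5 to 12763. The neutrophil list, 27 of 29 genes with none at 0, ranged from 17557 to 37776 and from 30708 to 105267. The dendritic list, 12 of 12 genes with none at 0, ranged from 418 to 2168 and from 247 to 694, and 3 of its 5 tested genes were lower in aGVHD by limma. The T and NK cell list, 12 of 14 genes with none at 0, ranged from 0 to 853 and from 5.98 to 536. Transcripts of mitochondrial genes, also higher in control, took 14.7% ± 2.95 against 10.4% ± 3.34.

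The minor classes supplied most of the ribosomal protein transcripts. In control libraries the macrophage/monocyte-like cells, 12.6% of the cells, held 54.2% of the member transcripts, and the epithelial-like cells 26.01%, while the neutrophil-like cells held 9.98%. In aGVHD libraries the shares were 39.7%, 13.6% and 28.7%. With the macrophage/monocyte-like, epithelial-like and B or plasma cell-like cells left out, the mean share was 2.18% in control and 2.39% in aGVHD libraries. The difference was then 0.211. Limma called 0 of 63 members tested (5 at an unadjusted p under 0.05). It also called 0 of all 1563 genes tested, so this count is not a result about the members. The median log2 fold change was then 0.12, with 46 of 63 above 0. Macrophage/monocyte-like and epithelial-like cells were a smaller part of the aGVHD cells but had higher median transcript counts there. The median was 3538 named-gene transcripts in a control and 6753 in an aGVHD macrophage/monocyte-like cell, and 6970 and 9162 in an epithelial-like cell. In B or plasma cell-like cells it was 1573 in 4 control and 585 in 24 aGVHD cells.

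**Figure D5:**
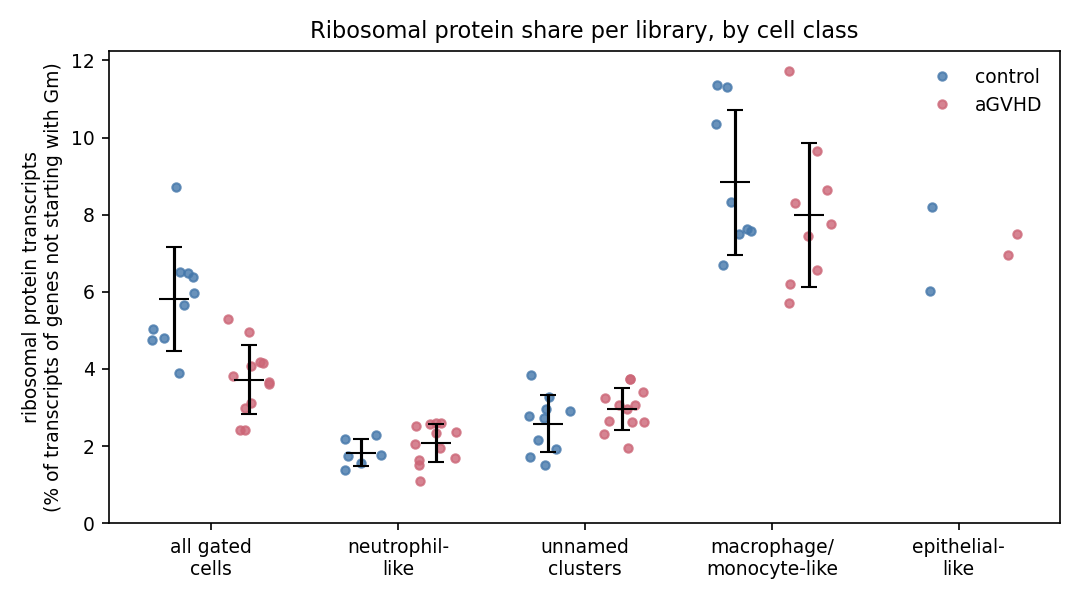
Share of named-gene transcripts from the 76 genes (y axis, %) per library (points), with mean and SD (black) for groups of more than 2. Shown are all gated cells and each class except the B or plasma cell-like cells. Over all gated cells the groups overlap, but 12 of 12 aGVHD points lie below the control mean of 5.82%. Within each class shown the groups overlap too.

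Within neutrophil-like cells, the class the gate was set for, the shares of the groups overlapped. The share was 1.39%, 1.76% and 2.29% in the lowest, median and highest of 6 control libraries (16 to 32 cells each) and 1.11%, 2.20% and 2.61% in 12 aGVHD libraries (25 to 63 cells). The means were 1.82% ± 0.35 and 2.08% ± 0.50, a difference of 0.258 percentage points, less than either SD, and 0.325 within the dated and 0.125 within the G1 titles. It was 0.0788 with cells of 250 or more transcripts kept and 0.0830 with clusters built from the members too. Per cell, the median share was 1.71% in control and 1.86% in aGVHD.

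Of 50 members tested in neutrophil-like cells, limma called 0, and 2 had an unadjusted p under 0.05. Of the 1020 genes tested, 0% were called. The median log2 fold change was 0.17, with 39 of 50 above 0, beside -0.04 over all genes tested. Of the 2 with an unadjusted p under 0.05, 1 was Rps9 (0.41 ± 0.18, limma adjusted p = 0.384). Rps9 had 766, 1267 and 1792 CPM in control and 970, 1597 and 1967 in aGVHD libraries, ranges that overlap. Rplp0 had 0, 209 and 434 against 84.4, 238 and 441, and Rpl13 had 96.8, 339 and 495 against 47.8, 237 and 469. The standard errors differed by member, with 0.54 for Rplp0 and 0.32 for Rpl13, beside changes of -0.82 and -0.97 over all gated cells. At these depths a change of that size could be missed for members with errors like that of Rplp0. For Rpl13 the estimate in neutrophil-like cells was -0.06 ± 0.32. Whether the changes differed between neutrophil-like and all gated cells was not tested. Marker sums of other classes within these cells were 2380 against 2292 CPM for the macrophage and monocyte list and 969 against 313 for the epithelial list, means over control and aGVHD libraries.

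The neutrophil-like clusters had similar shares. The 4 clusters with more than 1 control cell had pooled shares from 1.96% to 2.27%. The cluster led by the granule genes Ngp, Camp and Ltf, which mark immature neutrophils, had 2.19% (1 control and 43 aGVHD cells). The lowest share, 1.42%, was in a cluster of 1 control and 41 aGVHD cells whose leading genes include Asprv1, Stfa2 and S100a9. In macrophage/monocyte-like cells the mean over 9 aGVHD libraries was 0.905 of that over 8 control libraries, and the unnamed clusters had 2.58% ± 0.74 in 10 and 2.95% ± 0.55 in 12. In both classes the difference was smaller than the SD within a group, and no test was made. Within the title sets the macrophage/monocyte-like difference was 0.418 points (dated, 4 and 5 libraries) and -2.25 points (G1, 4 and 4).

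Other genes of the translation machinery were described with the same fit over all gated cells. Of 19 tested genes in a list of other mRNAs with a TOP element, such as elongation factors, 1 was lower, Gnb2l1, which encodes the small-subunit scaffold Rack1 (-0.77 ± 0.23, limma adjusted p = 0.0474). The median of that list was -0.51. Within neutrophil-like cells its share was 0.488% in control and 0.596% in aGVHD libraries. None of 6 ribosome biogenesis genes (median -0.11), 5 translation control genes (-0.10) or 8 mitochondrial ribosomal protein genes (0.03) passed the test by limma, with 0 at an unadjusted p under 0.05 in each list. Of the 12 macrophage and monocyte markers tested 0 were called (2 lower at an unadjusted p under 0.05), while 10 of 24 neutrophil markers were higher.

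Members with the pyrimidine run at the annotated start, such as Rps15a and Rps18 shown above, and members without it both had negative changes. Of 12 tested members with a run of at least 5, 7 were lower and the median log2 fold change was -0.75. Of 36 without it, 12 were lower and the median was -0.60. Rpl11, with no run at its annotated start, had the largest change. The difference between these sets was not tested.

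Whether the group difference itself differed between the dated and the G1 titles was asked with an interaction term. Limma called 0 of 69 members (0% of 2812 genes), and 4 members had an unadjusted p under 0.05. The median difference of the log2 fold changes, G1 minus dated, was 0.33 for the members and 0.01 for all genes. The medians within the sets were -0.77 (dated, 1 of 65 members called) and -0.40 (G1, 0 of 66 called, 13 at an unadjusted p under 0.05). Over all genes, 7 of 1909 were called in the dated set and 6 of 2084 in the G1 set.

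The title of the series names Lcn2, the siderophore-binding protein lipocalin-2, as the marker of a neutrophil population, and the members were compared between positive and negative neutrophil-like cells within each library, each cell thinned to 500 transcripts. In the 7 aGVHD libraries that had 5 or more of both kinds, the share was 1.13%, 1.69% and 2.72% (lowest, median, highest) in positive and 1.54%, 2.21% and 2.55% in negative cells. It was lower in the positive cells of 5 of 7 libraries, with means of 1.78% ± 0.62 and 2.14% ± 0.36. At this depth 6 members could be tested, and limma called 0 of them, with 0 at an unadjusted p under 0.05, where 9.35% of 321 genes were called. The 6 were Rpl17, Rpl23, Rps9, Rps16, Rps23 and Rpsa, with changes from -0.30 for Rps23 to 0.30 for Rps9. Without thinning, 1 of 48 members was called, Rpl18, lower in positive cells (-0.82 ± 0.22, limma adjusted p = 0.0111). That is 2.08% of the members, beside 6.13% of the 946 genes tested called lower and 14.4% called in either direction.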

How the data were processed

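The submitters' processing notes list BWA 0.6.2-r126 and bcl2fastq 2.17.1.14, and the genome build and annotation are not given in the sources used here. The deposited values are estimated transcript counts per gene and barcode, corrected for identifiers drawn from 4096 and not scaled for depth, and they were rounded to whole transcripts. The members, gene lists and tests were chosen with earlier results of these data known. Groups came from the sample descriptions, and replicates are numbered in accession order.

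Barcodes with at least 500 transcripts were kept, with no doublet caller run. They were clustered on the genes of the marker lists, none of them members (Leiden, leidenalg 0.10.2), and named from the same lists. Wide detection in the cluster, a threshold set after seeing the data, was required only of leading genes. It was not required of the markers counted as raised for a name. Transcripts were summed per library, scaled by trimmed means and tested with limma 3.58.1 (voom, title set as covariate, a low-count filter of 10 transcripts for a library of median size and 15 over all libraries, Benjamini-Hochberg over all genes tested, adjusted p under 0.05). Neutrophil-like cells were tested in libraries with at least 10 of them. Fits were tested on simulated data. Named genes were the called members, the 10 of highest level, the 10 of largest change and the role lists, except 5 that are counted in every fit but not reported singly or plotted here; Rpl41 and Rps28, labelled in plots, and Rpl18, Rpl23a, Rps12 and Rps6 were chosen after their values were seen. Copies were rows that shared any 50-base word with the last 200 bases of a member's GENCODE vM21 transcript. Starts came from RefSeq GRCm38.p6 by gene symbol. Other settings tried were the scaling, filters, cell minimum, thinning, library sets and each library left out. No 2 libraries were identical: over 111 pairs within groups the lowest chi-square per degree of freedom was 3.21.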

Additional observations from a re-analysis of the deposited data

Results flagged for a closer look

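Of 55 sets of control libraries examined for a single library far from the rest, 7 had one. Chance gives about 1 in 20. Sets of the 12 aGVHD libraries were not examined, since the critical values used covered at most 10 libraries. In all 7 it was the highest library. Control 9, with 12 cells and 29334 transcripts the shallowest library, was that library in 6 of them. Its levels in CPM of named genes were 2401 for Rpl17 (next highest control 1537), 1867 for Rpl5 (1120), 2347 for Rplp1 (1454), 1974 for Rps27a (1410) and 1120 for Rps28 (659), and its share of other TOP mRNAs was 2.15% (next 1.41%). Without control 9, 15 members were called and the difference in share was -1.78 percentage points. Control 1 had 203.5 CPM of Rps27l, next to 127.6 in the following library.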

How the results depend on the processing

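Over all gated cells, 59 members were called lower with no low-count filter (33.2% of all genes tested were then lower) and 57 with limma trend (9.74%). The number was 1 in the dated set alone (7 of 1909 genes called in either direction) and 0 in the G1 set alone (6 of 2084). It was 0 when scaled to the library total (0 of 2382) and 1 without very deep or Kcnq1ot1-rich barcodes (4 of 1635). In libraries with at least 20 cells it was 0 (3 of 2886). Among settings chosen after seeing the data, it was 0 of 26 members with cells thinned to 250 named-gene transcripts (1 of 314 genes). Only 7 of the 28 members called in the main fit could be tested there. Without the other named classes it was 0 of 63 (0 of 1563 genes). Besides no filter and limma trend, these settings called few or no genes at all, so their low counts are not particular to the members. Where 1 was called it was Rpl13. Leaving out each library gave 7 to 49. Whether title numbers pair the dated libraries was not settled. Over 6 same-number pairs the correlation r ran from -0.107 to 0.228 (median 0.201, 4 of 6 over 0.1). Of the controls, 2 were closest to their own number. With the replicate block 1 member was called (46 of 3034 genes), and without it on those libraries also 1 (7 of 1646). In neutrophil-like cells the block fit called 9 of 934 genes, and the fit without it 0 of 634. In neutrophil-like cells every setting run called 0 members. These settings called few or no genes of any kind, so that result is not particular to the members. With thinned neutrophil-like cells only 1 member could be tested. Over all gated cells, the median log2 fold change of all genes was -0.99 without the filter and -0.25 with limma trend. The counts of 59 and 57 members should be read against these medians. By Lcn2 status, unthinned cells gave 1 of 48 members, beside 14.4% of all genes tested.

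The difference in share was -0.941 points as a share of all transcripts, -1.08 as a mean of single-cell shares, and 0.211 without the other named classes, where it reversed. It was -1.39 in libraries with at least 20 cells and -1.32 with thinned cells. Leaving out each library gave -2.31 to -1.78, and in neutrophil-like cells 0.171 to 0.351. There the difference was 0.0788 with a minimum of 250 transcripts, 0.0830 with clusters built with the members, 0.125 in the G1 set and 0.154 in libraries with at least 5 such cells, beside 0.258.

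The log2 fold change reversed for Rps19 in the G1 set (0.14) and, thinned, for Rps20 (0.0142). Without the other named classes it reversed for 26 members named here: Rpl12 0.26, Rpl13a 0.14, Rpl17 0.14, Rpl19 0.0665, Rpl22 0.10, Rpl23 0.16, Rpl30 0.0344, Rpl31 0.45, Rpl35a 0.34, Rpl37a 0.19, Rpl39 0.0135, Rpl5 0.41, Rplp0 0.33, Rplp1 0.17, Rps15a 0.26, Rps16 0.12, Rps19 0.22, Rps20 0.36, Rps23 0.41, Rps24 0.00349, Rps27a 0.0504, Rps29 0.0437, Rps3 0.48, Rps7 0.18, Rps9 0.36 and Rpsa 0.0458. The cause of these changes was not tested. A count model was not run. The 12-cell controls limit the precision of the control means, and neutrophil-like cells the number of members tested.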
